A study of Homo sapiens with 6 samples.

Results

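The 8 genes described here, ZFP36, ZFP36L1, ZFP36L2, ELAVL1, KHSRP, RC3H1, RC3H2 and ZC3H12A, encode RNA-binding proteins that set how long short-lived mRNAs last. They were taken by gene symbol from 60607 genes in 6 RNA-seq libraries, and all 8 passed the filter on low counts. The list was selected on earlier readings of the estimated counts in siSlu7 against siGL2 libraries, so the genes' values in that comparison are given as a description, with no test. PLC/PRF/5, an established line of human hepatocellular carcinoma cells, received siRNAs that target SLU7, a splicing factor (siSlu7, 3 libraries), or siGL2, an irrelevant control siRNA (3 libraries). PolyA RNA was taken 48 h after transfection and turned into sequencing libraries with a ScriptSeq kit. The labels speak of triplicates and do not say whether these were separate cultures, so p-values reflect the spread among the 6 libraries alone, and that spread may be technical.

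Many mRNAs of cytokines, growth regulators and transcription factors carry AU-rich elements in their 3′ UTR, short runs built around AUUUA. Proteins of the ZFP36 family bind such an element and bring in the CCR4-NOT complex, which removes the poly(A) tail and so starts decay, whereas ELAVL1 binds similar sequences and protects the mRNA. KHSRP also promotes decay from AU-rich elements, while the Roquin proteins (RC3H1 and RC3H2) and the nuclease Regnase-1 (ZC3H12A) recognise short stem-loops in an overlapping set of inflammatory mRNAs.

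The libraries held 5191452 to 6315740 estimated counts with siSlu7 and 7736584 to 8693977 with siGL2. Expression is given in CPM (counts scaled to library size), TMM-normalised, which sets libraries side by side for 1 gene, and in TPM, which also divides by transcript length and allows genes to be compared. SLU7, the knocked-down gene, had 9.24, 8.11 and 10.5 CPM in siSlu7 libraries 1, 2 and 3, against 20.8, 17.1 and 18.3 CPM in siGL2 libraries 1, 2 and 3. It averaged 9.27 ± 1.18 CPM in siSlu7 cells and 18.8 ± 1.9 CPM in siGL2 cells (SD, n = 3 each), 49.5% of the control level by the fit, but 4.38 ± 0.277 TPM in siSlu7 cells and 4.7 ± 1.25 TPM in siGL2 cells. Mitochondrial ribosomal RNA took 29.9% to 35.3% of the counts with siSlu7 and 16.8% to 24.1% with siGL2, and 7SL RNA took 7.95% to 10.5% with siSlu7 and 15.4% to 22.8% with siGL2. The part of these differences in the results was not tested. All 9 hepatocyte and liver cancer markers were detected, with a summed level of 18088 to 23888 CPM in siSlu7 cells and 19209 to 27164 CPM in siGL2 cells. The 6 leukocyte markers summed to 49.8 to 59 CPM in siSlu7 cells and 51.8 to 62.8 CPM in siGL2 cells, mainly LYZ and CD68. The fibroblast markers summed to 1.68 to 3.48 CPM in siSlu7 cells and 1.27 to 3.23 CPM in siGL2 cells, with LUM at 0. The endothelial markers summed to 3.47 to 4.85 CPM in siSlu7 cells and 3.34 to 3.73 CPM in siGL2 cells, with KDR at 0. Fewer cells of a kind and less RNA per cell cannot be told apart in bulk RNA. Of 17097 genes tested with edgeR, 2358 differed at an adjusted p under 0.05, 1013 higher and 1345 lower in siSlu7 cells. This count moved with single libraries, from 0 without siSlu7 library 2 and 331 without siSlu7 library 1 to 4467 without siGL2 library 1.

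ZFP36 stood apart from the other 7 genes. It encodes tristetraprolin, a CCCH zinc-finger protein that binds UAUUUAU and drives deadenylation, and its own mRNA is short-lived and AU-rich. The gene (ENSG00000128016.7) lies on chromosome 19 at 39406813-39409412, plus strand (GRCh38, GENCODE 29). It had 5.08, 4.98 and 4.67 CPM in siSlu7 libraries 1, 2 and 3, against 12.3, 43 and 25.2 CPM in siGL2 libraries 1, 2 and 3. All siSlu7 libraries lay below all siGL2 libraries, and they lay close together, while the controls spread widely: the highest was 1.09 times the lowest with siSlu7 and 3.49 times with siGL2. These levels rest on 33, 27 and 25 counts in siSlu7 libraries and on 98, 321 and 197 in siGL2 libraries. The means were 4.91 ± 0.211 CPM in siSlu7 cells and 26.8 ± 15.4 CPM in siGL2 cells (SD, n = 3 each), a log2 fold change of -2.44 (SE 0.42), or 18.4% of the control level. On the TPM scale the means were 2.03 ± 0.216 in siSlu7 cells and 8.07 ± 3.73 in siGL2 cells (SD, n = 3 each).

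ZFP36 was the 1 gene of the 8 called in the fit over all genes, where 13.8% of genes were called. The call was lost without siSlu7 library 1 and without siSlu7 library 2, although the log2 fold change was -2.47 and -2.45 there. Leaving out control libraries moved the value more: it was -1.94 without siGL2 library 2, the highest, and -2.79 without siGL2 library 1, the lowest. Without both siGL2 library 1 and siSlu7 library 3 it was -2.75. On log2(TPM + 1), a scale that understates changes of low genes and on which the median gene lay 0.35 higher in siSlu7 cells, it was -1.49.

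The 3 family members carry the motif that the family binds in their own 3′ UTRs, which is why these sites are shown. Each holds 3 copies of TATTTAT, the DNA form of UAUUUAU, in the 3′ UTR of its main coding transcript, and 1 stretch of 30 bases from each is given 5′ to 3′ on the transcribed strand. Capitals mark the motif. The sites lie at chr19:39409188-39409217 (plus strand), chr14:68788336-68788365 (minus) and chr2:43223448-43223477 (minus), all in GRCh38 and read from GENCODE 29 transcripts. At least 1 sense-strand match, overlaps allowed, was present in 22.8% of the 12068 coding genes whose 3′ UTR could be read.
ZFP36: ccttTATTTATgacgacttTATTTATtcta
ZFP36L1: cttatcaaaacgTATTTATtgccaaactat
ZFP36L2: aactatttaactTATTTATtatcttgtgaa

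The paralogues, which hold the same motif, were closer to their controls. ZFP36L1 lies at chr14:68787660-68796253 and ZFP36L2 at chr2:43222402-43226609, both on the minus strand. ZFP36L1, a decay factor known in mice from embryonic development and from bile acid control in liver, had 12.8, 16.2 and 19.1 CPM in siSlu7 libraries 1, 2 and 3, against 20.5, 16.7 and 20.6 CPM in siGL2 libraries 1, 2 and 3. The groups overlapped, and the log2 fold change was -0.27 (SE 0.20). ZFP36L2, a paralogue known in mice from blood cell and oocyte development, had 7.85, 4.98 and 4.67 CPM in siSlu7 libraries, against 3.14, 6.7 and 8.05 CPM in siGL2 libraries. Here the lowest and the highest value were both in siGL2 libraries, and the log2 fold change was -0.02 (SE 0.37). Neither paralogue was called, and the difference between their fold changes and that of ZFP36 was not tested.

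**Figure D1:**
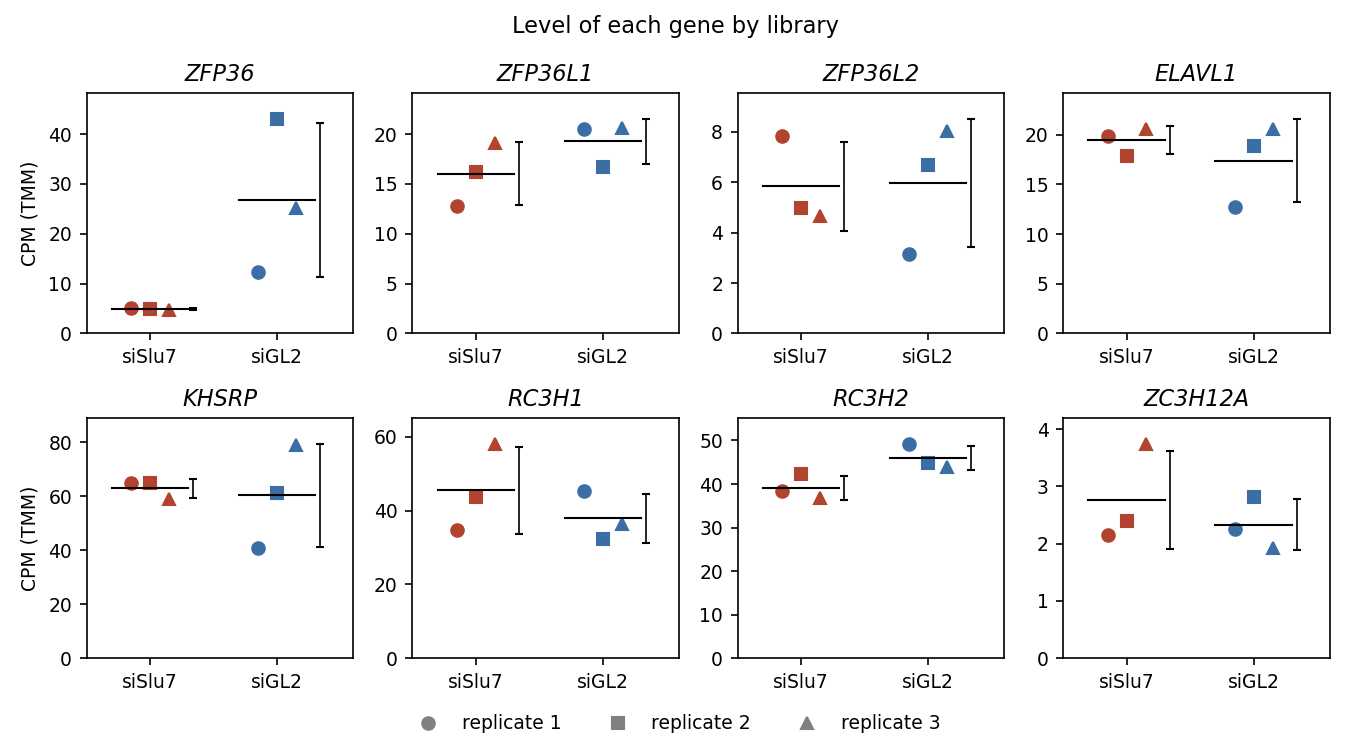
CPM of each of the 8 genes in the 3 siSlu7 libraries (left, red) and the 3 siGL2 libraries (right, blue); the symbol shape gives the replicate number, the line the mean and the bar the SD. ZFP36 lies between 4.67 and 5.08 CPM in siSlu7 libraries and between 12.3 and 43 CPM in siGL2 libraries, while 6 of the other 7 genes overlap between the groups.

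Because TPM values can be added across genes, they show the make-up of the family's RNA. The 3 family members summed to 6.15, 6.64 and 6.62 TPM in siSlu7 libraries 1, 2 and 3, against 7.72, 14 and 13.6 TPM in siGL2 libraries 1, 2 and 3. ZFP36 supplied 33.4%, 33.6% and 27.2% of that sum in siSlu7 libraries, against 51.2%, 80.1% and 66.3% in siGL2 libraries. ZFP36L1 supplied 44%, 53.7% and 60.3% in siSlu7 libraries, against 43.5%, 15% and 25.5% in siGL2 libraries. ZFP36L1 was thus the most abundant of the 3 transcripts in every siSlu7 library, and ZFP36 in every siGL2 library. ZFP36L2 remained the least abundant in all 6, with 12.4% to 22.6% in siSlu7 libraries and 4.89% to 8.23% in siGL2 libraries. Among all 8 genes ranked by TPM, ZFP36 held rank 6 in each siSlu7 library, and ranks 5, 2 and 3 in siGL2 libraries 1, 2 and 3. KHSRP ranked first in 5 of the 6 libraries.

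ELAVL1 (HuR), the stabiliser that competes for AU-rich sites, had 19.9, 17.9 and 20.6 CPM in siSlu7 libraries 1, 2 and 3, against 12.7, 18.9 and 20.6 CPM in siGL2 libraries 1, 2 and 3. Only siGL2 library 1 lay apart from the rest, and the log2 fold change was 0.16 (SE 0.21). The gene (chr19:7958579-8005659, minus strand) overlaps the antisense gene AC010336.6, and without a stated strand setting their reads cannot be told apart. KHSRP, a KH-domain protein that recruits decay enzymes and also acts in splicing and microRNA maturation, had 65.1, 65.1 and 58.9 CPM in siSlu7 libraries, against 40.8, 61.2 and 79 CPM in siGL2 libraries. KHSRP lies at chr19:6413348-6424794, minus strand. As with ZFP36, the siSlu7 libraries lay close together and the controls spread, the highest being 1.11 times the lowest with siSlu7 and 1.94 times with siGL2. The KHSRP means of 63 ± 3.58 CPM in siSlu7 cells and 60.3 ± 19.1 CPM in siGL2 cells (SD, n = 3 each) gave a log2 fold change of 0.06 (SE 0.23).

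The stem-loop binders and the nuclease were not called either. They lie at chr1:173931214-174022297 (RC3H1, minus strand), chr9:122844556-122905341 (RC3H2, minus) and chr1:37474552-37484379 (ZC3H12A, plus). RC3H1 (Roquin-1), which brings CCR4-NOT to stem-loops, had 34.8, 43.7 and 58.1 CPM in siSlu7 libraries 1, 2 and 3, against 45.3, 32.3 and 36.4 CPM in siGL2 libraries 1, 2 and 3, with a log2 fold change of 0.26 (SE 0.22). RC3H2 (Roquin-2), its paralogue with partly redundant function, had 38.3, 42.2 and 36.8 CPM in siSlu7 libraries, against 49.2, 44.9 and 44 CPM in siGL2 libraries. Its groups did not overlap, the siSlu7 values being lower, although the log2 fold change was -0.23 (SE 0.14). ZFP36 and RC3H2 were thus the 2 genes of 8 without overlap, where 36.6% of all tested genes had none. ZC3H12A had the lowest counts, 14, 13 and 20 in siSlu7 libraries and 18, 21 and 15 in siGL2 libraries. These gave 2.15, 2.4 and 3.74 CPM in siSlu7 libraries, against 2.26, 2.81 and 1.92 CPM in siGL2 libraries, which overlapped (log2 fold change 0.24, SE 0.35).

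Over the 8 genes the median log2 fold change was 0.02, beside -0.01 over all genes tested, with 4 values above 0 and 4 below. The 7 genes that were not called lay between -0.27 and 0.26. Over the 15 alternatives on counts the sign changed for 4 of these. ZFP36L2 ranged from -0.32 to 0.24, ELAVL1 from -0.06 to 0.28 and KHSRP from -0.15 to 0.42. ZC3H12A ranged from -0.31 with transcript length offsets to 0.68 with GC content and length offsets. ZFP36L1 stayed negative, between -0.41 and -0.13, as did RC3H2, between -0.55 and -0.14, and RC3H1 stayed positive, between 0.04 and 0.42. ZFP36 ranged from -2.79 to -1.94. On log2(TPM + 1), relative to the median gene, ZFP36L1 was at -0.19, RC3H2 at -0.38, RC3H1 at 0.33 and ZFP36 at -1.84.

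**Figure D2:**
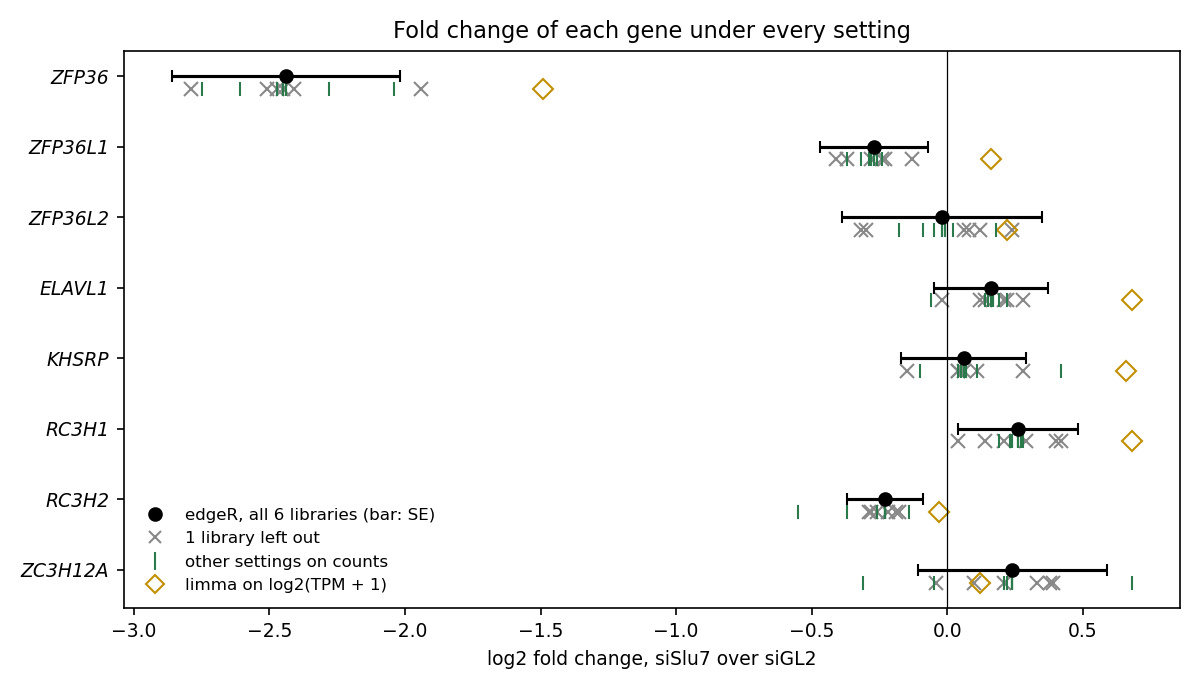
Log2 fold change (x axis, siSlu7 over siGL2) of each gene: the black point with its SE is the edgeR value over all 6 libraries, crosses leave out 1 library, ticks are other settings on counts and diamonds are log2(TPM + 1). ZFP36 lies between -2.79 and -1.49, and the other 7 genes lie around 0 between -0.55 and 0.68.

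The coding genes with a level of at least 5 CPM were ranked by likeness to ZFP36, as the root mean square difference of log2(CPM + 0.5), centred per gene, over the 6 libraries. The 5 most alike of 9931 were AGRN (0.199), CHAC1 (0.263), SLC52A2 (0.284), CKB (0.291) and CACNA1H (0.313). AGRN, which encodes the matrix proteoglycan agrin, had 41.4, 40.9 and 42.6 CPM in siSlu7 libraries 1, 2 and 3, against 89, 232 and 181 CPM in siGL2 libraries 1, 2 and 3. CHAC1, a glutathione-degrading enzyme, had 2.46, 2.4 and 1.31 CPM in siSlu7 libraries, against 5.15, 14.3 and 9.2 CPM in siGL2 libraries. CKB, the brain-type creatine kinase, had 50.5, 58.6 and 55.3 CPM in siSlu7 libraries, against 116, 266 and 190 CPM in siGL2 libraries. All 5, the riboflavin transporter gene SLC52A2 and the calcium channel gene CACNA1H included, had their lowest control value in siGL2 library 1 and their highest in siGL2 library 2, as ZFP36 did. The ranking picks such genes by construction.

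At the level of transcripts, the files hold 50 records of the 8 genes, of which 21 were tested. None of the 43128 transcripts tested in all was called by edgeR (0%), while 6956 had an unadjusted p under 0.05, and no other tool was run on transcripts. The values below are therefore shares of a gene's estimated counts, as a description. Among the 18 tested transcripts in genes with at least 2, the shares of 3 did not overlap between groups. These were 16.7% of the 18, with 2 shares higher and 1 lower. Over all 36194 such transcripts 23.3% did not overlap, 14% with a higher and 9.26% with a lower share, so the 8 genes did not exceed the background. Splitting of reads between similar transcripts carries an error that was not modelled.

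All 3 were transcripts of KHSRP. KHSRP-212, a coding transcript of 4276 nt, held 18.7%, 19.5% and 23.6% of the gene in siSlu7 libraries 1, 2 and 3, against 37.7%, 38.5% and 44.4% in siGL2 libraries 1, 2 and 3. KHSRP-213, a coding transcript of 2226 nt, held 39.8%, 47.7% and 49.2% in siSlu7 libraries, against 31%, 20.9% and 20.9% in siGL2 libraries. The longer form was thus the lower and the shorter form the higher one in siSlu7 cells, with means of 20.6 ± 2.63% in siSlu7 cells and 40.2 ± 3.69% in siGL2 cells for KHSRP-212. For KHSRP-213 the means were 45.6 ± 5.04% in siSlu7 cells and 24.3 ± 5.84% in siGL2 cells (SD, n = 3 each). KHSRP-209, a retained-intron transcript of 706 nt, held 4.74%, 5.97% and 4.44% in siSlu7 libraries, against 1.85%, 1.97% and 1.62% in siGL2 libraries, on 6 to 21 counts. All retained-intron transcripts of KHSRP together held 31%, 18.5% and 13.2% in siSlu7 libraries, against 17.5%, 21.1% and 28.5% in siGL2 libraries, and overlapped.

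ZC3H12A had overlapping totals but counts on different transcripts. Its coding transcript ZC3H12A-201 had 0, 7 and 0 estimated counts in siSlu7 libraries 1, 2 and 3, against 18, 11.8 and 14.7 in siGL2 libraries 1, 2 and 3. ZC3H12A-204, annotated as a target of nonsense-mediated decay, had 11.3, 6 and 20 in siSlu7 libraries, against 0, 2 and 0 in siGL2 libraries. The decay class held 80.4%, 46.4% and 100% of the gene in siSlu7 libraries, against 0%, 9.4% and 0% in siGL2 libraries, where a count of 0 allows a share of up to 16.7% and 20% in libraries 1 and 3. With so few counts, a count of 0 still allows a share of up to 21.4% and 15% for the coding transcript in siSlu7 libraries 1 and 3. These limits cover counting error only, not error in splitting reads between transcripts. The coding and the decay class of ZC3H12A were the 2 classes of 15, over 6 genes, whose shares did not overlap, 1 higher and 1 lower. Over all 31897 such classes of tested genes 18.9% did not overlap, 10.3% higher and 8.64% lower, so the 8 genes did not exceed the background here either. ZC3H12A-204 was too low to be tested.

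ZFP36 counts lay mostly on 1 coding transcript, ZFP36-203, which held 0%, 86.3% and 96.9% of the gene in siSlu7 libraries 1, 2 and 3, against 94.3%, 89.2% and 87.7% in siGL2 libraries 1, 2 and 3. In siSlu7 library 1 all 33 counts were on ZFP36-205, a processed transcript of 1699 nt with 0 estimated counts in the other libraries. A count of 0 in siSlu7 library 1 allows ZFP36-203 a share of up to 9.09% from counting error only. Error in splitting reads between similar transcripts is not part of that limit. The gene total of that library, 5.08 CPM, was close to those of the other siSlu7 libraries. RC3H2 had its largest share on RC3H2-205, with 141, 115.7 and 93.3 estimated counts in siSlu7 libraries, against 227.1, 195.7 and 187.7 in siGL2 libraries, which were sequenced more deeply. As shares of the gene these were 56.4%, 50.4% and 47.4% in siSlu7 libraries, against 57.9%, 58.3% and 54.6% in siGL2 libraries, and overlapped. The long RC3H2-202 (8964 nt) had 0, 0 and 0.5 estimated counts in siSlu7 libraries, against 21.1, 10.1 and 32.5 in siGL2 libraries, and was too low to be tested.

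Some of these genes carry the AU-rich motif in a long transcript and not in a short one. ELAVL1-201 has 5 copies of TATTTAT in a 3′ UTR of 4904 bases and ELAVL1-205 has none in 324 bases. ELAVL1-201 held 29.5%, 33% and 11.7% of the gene in siSlu7 libraries 1, 2 and 3, against 5.45%, 36.2% and 30.5% in siGL2 libraries 1, 2 and 3. RC3H1-203 has 2 copies in 7507 bases and RC3H1-202 none in 310 bases, and RC3H1-203 held 35.4%, 12.3% and 17.2% in siSlu7 libraries, against 26%, 26.8% and 28.6% in siGL2 libraries. The groups overlapped for both. RC3H2-203 has 5 copies in 5071 bases and held 22%, 15% and 14.4% in siSlu7 libraries, against 7.49%, 15% and 8.47% in siGL2 libraries. No copy was found in the 3′ UTR of the KHSRP transcripts that could be read or of ZC3H12A-201. The 3′ UTR of KHSRP-212, the longest KHSRP transcript, could not be read, and that of KHSRP-213 has 16 bases.

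**Figure D3:**
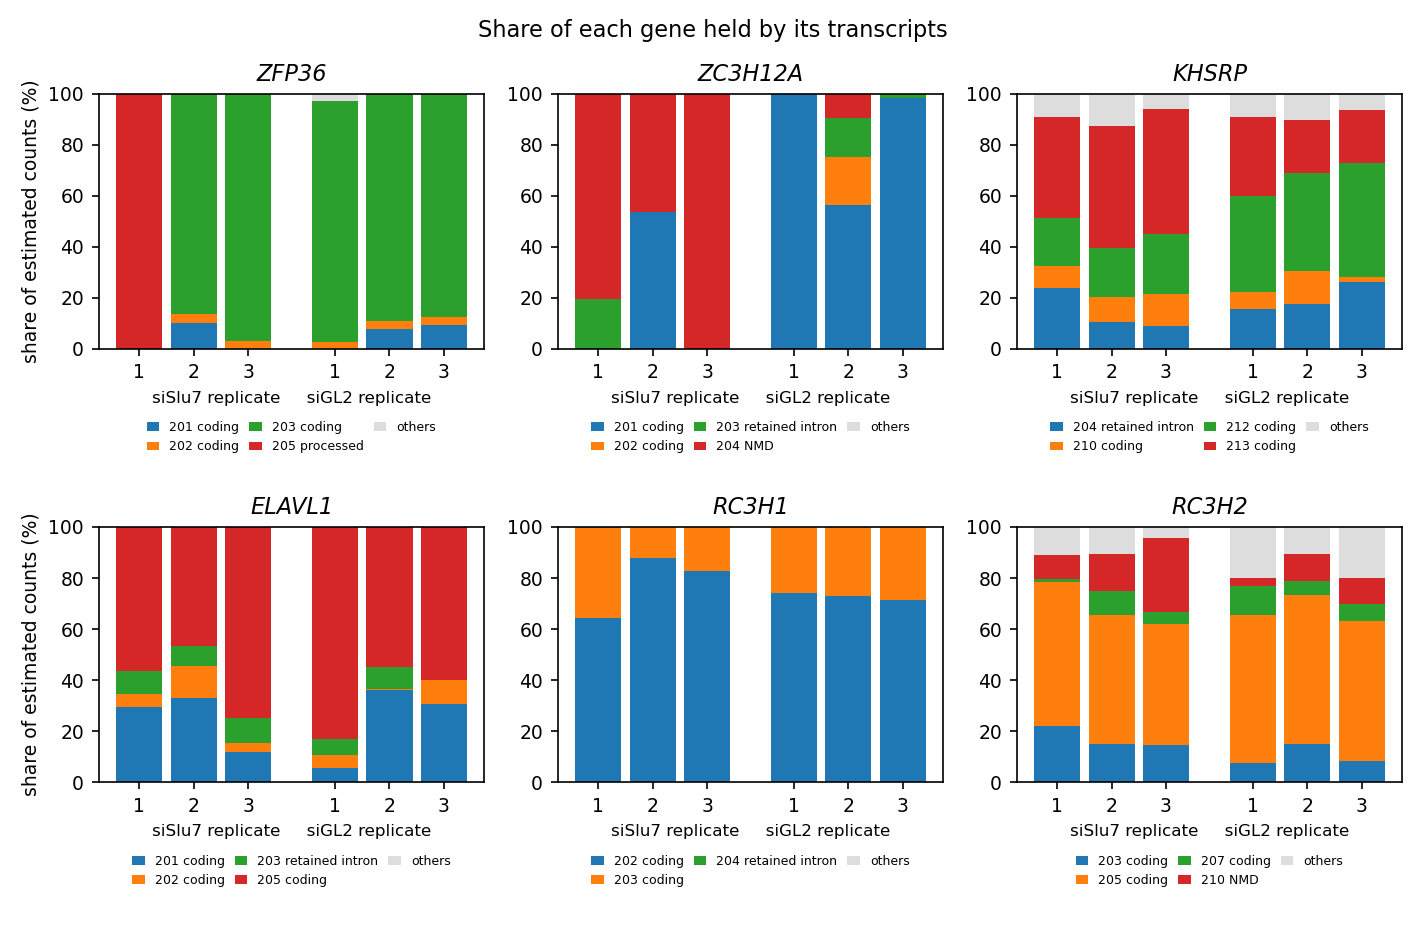
Share of the estimated counts (y axis, %) that each transcript holds in the 3 siSlu7 libraries (left bars) and the 3 siGL2 libraries (right bars) for 6 genes, with up to 4 transcripts coloured, their numbers and types in the legend (NMD, nonsense-mediated decay) and the others in grey. KHSRP-213 holds 39.8% to 49.2% in siSlu7 libraries and 20.9% to 31% in siGL2 libraries, and ZC3H12A-204 holds 46.4% to 100% in siSlu7 libraries and 0% to 9.4% in siGL2 libraries.

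The enzymes that carry out decay, the signals that act on ZFP36 and the mRNAs on which these proteins act were read from 8 lists. Of 141 list genes tested, 22 rose and 8 fell in siSlu7 cells, with a median log2 fold change of 0.13 beside -0.01 over all genes, where 5.93% rose and 7.87% fell. The 8 lists were chosen with earlier results of these data known. Neither the pooled count nor that of a single list is therefore independent evidence of a direction. The 30 calls went to 0 without siSlu7 library 2, and to 2 without siSlu7 library 1, 4 without siGL2 library 2 and 3 without siGL2 library 3. They went to 11 without siSlu7 library 3, to 49 without siGL2 library 1, to 56 without both of these, and to 6 with transcript length offsets. On log2(TPM + 1), where 95.2% of all calls were higher, none of the 8 lists had a gene called lower. Adjusted p-values below are from edgeR's quasi-likelihood test with Benjamini-Hochberg adjustment over all 17097 genes, and means carry the SD over 3 libraries per group. The 24 list genes named below were called in 5 (EIF4ENIF1) to 14 (CXCL8) of the 16 alternatives, with a median of 9. FOSL2 and IER3 were called in 7, and CNOT3, EDC4, FUBP3, MAPK11, CXCL1 and REL in 8.

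Among 19 deadenylase genes, which cut the poly(A) tail for ZFP36 and the Roquins, 1 rose and 1 fell. CNOT3, a CCR4-NOT subunit, rose to 26 ± 4.27 CPM in siSlu7 cells, against 14.7 ± 1.5 CPM in siGL2 cells (log2 fold change 0.82, adjusted p = 0.0232). PAN2, the nuclease of the other deadenylase complex, fell to 16 ± 2.95 CPM in siSlu7 cells, against 29.2 ± 3.49 CPM in siGL2 cells (log2 fold change -0.87, adjusted p = 0.022). Of 18 decapping genes 1 rose, EIF4ENIF1, a partner of the cap-binding protein eIF4E (log2 fold change 0.58, adjusted p = 0.0462), and 1 fell, the decapping scaffold EDC4. EDC4 had 31.9 ± 4.8 CPM in siSlu7 cells and 59.9 ± 10.6 CPM in siGL2 cells (log2 fold change -0.91, adjusted p = 0.0182), and 0.06 on log2(TPM + 1), which is -0.29 relative to the median gene on that scale. PAN2 was at -0.12 there, or -0.47 relative to the median gene, and neither PAN2 nor EDC4 was called on that scale or with transcript length offsets.

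The 16 genes of the exosome and SKI complex, which serve RNA decay from the 3′ end, included 5 that rose and none that fell, with a median of 0.40. EXOSC9, a subunit of the exosome ring, rose to 36.1 ± 4.77 CPM in siSlu7 cells, against 19.9 ± 1.6 CPM in siGL2 cells (log2 fold change 0.86, adjusted p = 0.0159). The ring and cap subunits EXOSC3, EXOSC6 and EXOSC2 rose by 0.77, 0.85 and 0.64 on the log2 scale (adjusted p = 0.0299, 0.0332 and 0.0338). Offsets for GC content and length left 3 genes of this list called higher and 1 lower, with a median of 0.33. Transcript length offsets left none called, while the median was 0.51 and EXOSC9, EXOSC3, EXOSC6 and EXOSC2 were at 0.67, 0.75, 0.78 and 0.62.

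Of 23 other AU-rich element binders and related nucleases, 5 rose and 1 fell. ZC3H12C, a relative of Regnase-1, rose to 17.2 ± 2.01 CPM in siSlu7 cells, against 7.35 ± 1.1 CPM in siGL2 cells (log2 fold change 1.22, adjusted p = 0.0104). HNRNPD (AUF1), which can promote decay of AU-rich mRNAs, rose to 30.1 ± 1.49 CPM in siSlu7 cells, against 17.4 ± 1.36 CPM in siGL2 cells (log2 fold change 0.79, adjusted p = 0.0158). FUBP1 and FUBP3, relatives of KHSRP, rose by 0.74 and 0.62 on the log2 scale (adjusted p = 0.0203 and 0.028). KHSRP itself, beside them, was at 0.06 and was not called.

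The p38 pathway phosphorylates ZFP36 and so restrains its action. Of 18 genes of that pathway and its 14-3-3 partners none rose and 1 fell. MAPK11, which encodes p38 beta, had 1.36 ± 0.477 CPM in siSlu7 cells and 4.26 ± 0.438 CPM in siGL2 cells (log2 fold change -1.65, adjusted p = 0.0207), and was at -0.34 on log2(TPM + 1), or -0.69 relative to the median gene, where it was not called. ZFP36 is also known as an immediate early gene, induced with FOS and JUN, and 2 of 21 such genes rose and 2 fell. JUN rose to 16.9 ± 3.04 CPM in siSlu7 cells, against 9.19 ± 1.47 CPM in siGL2 cells (log2 fold change 0.88, adjusted p = 0.0298), and CCN1, a matricellular protein gene, by 0.92 (adjusted p = 0.0211). FOSL2 fell to 7.83 ± 2.49 CPM in siSlu7 cells, against 17.3 ± 2.82 CPM in siGL2 cells (log2 fold change -1.14, adjusted p = 0.0228), and IER3 fell by 0.68 (adjusted p = 0.0283). The median of the list was -0.14, but 0.11 without siGL2 library 2 and 0.15 with GC content and length offsets. On log2(TPM + 1) it was -0.19 relative to the median gene. ZFP36 is not counted in the list.

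Among 23 tested of 37 mRNAs known to be bound or destabilised by ZFP36 proteins, 6 rose and 3 fell, with a median of 0.24. CXCL8, the neutrophil chemokine interleukin-8, had 8.31, 9.22 and 4.67 CPM in siSlu7 libraries 1, 2 and 3, against 0.377, 1.21 and 0.767 CPM in siGL2 libraries 1, 2 and 3. Its groups did not overlap, with a log2 fold change of 3.22 (SE 0.45, adjusted p = 0.00891). The siGL2 values lay near the floor, and CXCL8 passed the low-count filter through the siSlu7 libraries, where it is high. The size of its fold change is therefore uncertain. IRF1, an interferon-response factor, had 16, 14.4 and 18.7 CPM in siSlu7 libraries, against 9.04, 5.62 and 7.41 CPM in siGL2 libraries (log2 fold change 1.15, adjusted p = 0.0167). TNFAIP3 (A20), an inhibitor of NF-kappaB signalling, rose to 23.5 ± 7.5 CPM in siSlu7 cells, against 9.78 ± 1.44 CPM in siGL2 cells (log2 fold change 1.26, adjusted p = 0.0191). The receptor gene NOTCH1 moved the other way, with 7.54, 10.1 and 7.1 CPM in siSlu7 libraries, against 17, 33.7 and 29.4 CPM in siGL2 libraries (log2 fold change -1.69, adjusted p = 0.0109), and its log2(TPM + 1) difference was -0.04, or -0.39 relative to the median gene. This list was drawn up with the rise of chemokine genes in these data already known, so its count is not independent evidence of a direction.

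Roquin and Regnase-1 targets gave 3 higher and 1 lower of 11 tested of 19, with a median of 0.40, which was -0.04 without siGL2 library 1 and siSlu7 library 3. CXCL1, a chemokine gene also on the ZFP36 list, rose to 2.96 ± 0.473 CPM in siSlu7 cells, against 0.985 ± 0.166 CPM in siGL2 cells (log2 fold change 1.57, adjusted p = 0.0254). Like CXCL8, it lay near the floor in siGL2 cells and passed the low-count filter through the siSlu7 libraries. NFKBIZ, a nuclear regulator of NF-kappaB activity, rose to 29.8 ± 1.81 CPM in siSlu7 cells, against 17.5 ± 2.49 CPM in siGL2 cells (log2 fold change 0.77, adjusted p = 0.0223). REL, an NF-kappaB subunit gene, rose by 0.68 (adjusted p = 0.0403). IER3, described above, was the 1 that fell.

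The target sites of 3 of these mRNAs are shown to set them beside those in ZFP36 itself. Each line gives 30 bases of the 3′ UTR, 5′ to 3′ on the transcribed strand, with TATTTAT in capitals, read from GENCODE 29 transcripts at chr4:73742301-73742330 (plus strand), chr4:73870673-73870702 (plus) and chr5:132483264-132483293 (minus) of GRCh38. CXCL1 has 3 overlapping copies in the stretch, and CXCL8 and IRF1 have 1.
CXCL8: atgataatttctttgatctcccTATTTATa
CXCL1: aagtcttcTATTTATTTATTTATtcattag
IRF1: ggcctttgcattTATTTATacagtgccttg

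**Figure D4:**
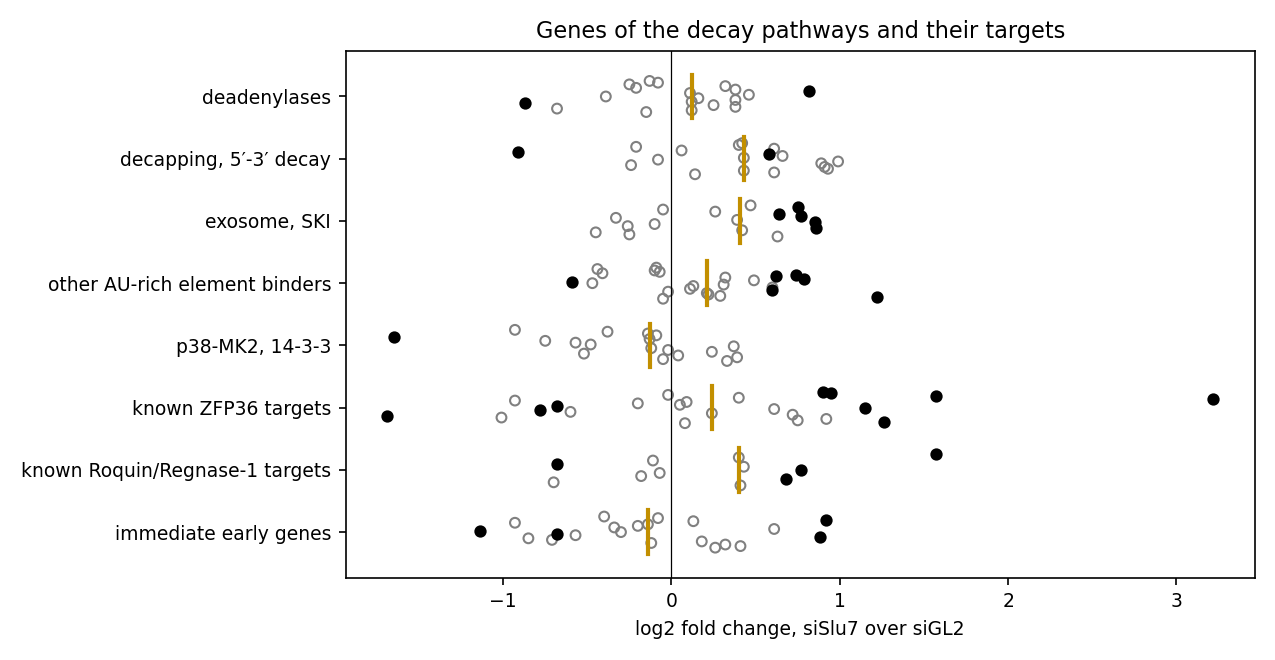
Log2 fold change (x axis, siSlu7 over siGL2) of each tested gene of the 8 lists (rows); filled points passed the edgeR test at an adjusted p under 0.05, open points did not, and the bar is the list's median. CXCL8 at 3.22 is the highest and NOTCH1 at -1.69 the lowest, and the medians lie between -0.14 and 0.43.

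Across all coding genes, the motif was set against the fold change, with no test. The 9319 genes with no TATTTAT in the 3′ UTR of their main transcript had a median log2 fold change of -0.062, and 6.16% rose and 10.3% fell. The 2749 genes with at least 1 had a median of 0.004, and 6.48% rose and 7.89% fell. In the 426 genes with 3 or more, the class to which the 3 ZFP36 family genes belong, 5.87% rose and 5.16% fell, and the median was 0.009. The classes differed mostly in the share that fell, and also in 3′ UTR length, with medians of 4305 bases in the last class and 379 bases in the first. Genes with and without the motif differed by 0.07 in their medians, but by 0.00 with GC content and length offsets. Per library, the centred median of genes with the motif minus that of genes without was 0.07, 0.03 and -0.01 in siSlu7 libraries 1, 2 and 3, against -0.03, -0.04 and -0.01 in siGL2 libraries 1, 2 and 3.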

How the data were processed

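Estimated counts and TPM per transcript were deposited, one table per library, and their columns are those that kallisto writes, per the file headers. FastQC 0.11.8, Trimmomatic 0.38, kallisto 0.46.1, sleuth 0.30.0 and the build GRCh38 are named per the submitters' processing notes, without role or order. For the strand setting and the annotation release, the entry is "not given in the sources used here". The authors' expected counts (estimated counts) were rounded per transcript and summed to genes, after 159 chromosome Y pseudoautosomal records were added to X. TPM values deposited by the authors were summed to genes.

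Genes (17097) and transcripts (43128) went into a fit with R 4.3.3 and edgeR 4.0.16: TMM, filterByExpr (10 counts in a library, 15 in all), the quasi-likelihood test of siSlu7 against siGL2 and Benjamini-Hochberg adjustment at 0.05. The script was tested on simulated data in which all genes had the same dispersion and no library stood apart. That test checks the code and gives no error rate for these libraries. The members and lists were chosen with earlier results of these data known. Beside the 8 genes and SLU7, the text names in each list the called genes with the smallest p, at most 4, and the 5 genes most like ZFP36. The markers LUM, KDR, CD68 and LYZ were singled out after seeing their values. Coordinates, 3′ UTRs and sequences came from GENCODE 29 transcripts within 10% of the length in the files. The 16 alternatives were a stricter filter, no filter, RLE size factors, a replicate block, leaving out each library or both siGL2 library 1 and siSlu7 library 3, DESeq2 1.42.0, limma 3.58.1 on log2(TPM + 1), length offsets, GC content and length offsets, and leaving out structural RNA.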

Additional observations from a re-analysis of the deposited data

How the results depend on the processing

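Of the 2358 gene calls, the range over single left-out libraries was 0 to 4467, and the fit without siGL2 library 1 and siSlu7 library 3 gave 5234. Transcript length offsets gave 958 (441 higher, 517 lower), GC content and length offsets gave 1805 (911 higher, 894 lower), and log2(TPM + 1) gave 3129 (2979 higher, 150 lower), beside 1013 higher and 1345 lower in the reported fit. With the replicate number as a block, 0 genes, 0 of the 8 (ZFP36 at -2.28) and 0 list genes were called. The labels do not say what libraries of the same number share. Deviations of same-numbered libraries had correlations of -0.44, 0.13 and -0.41. Those of differently numbered libraries ranged from -0.32 (siSlu7 library 3 with siGL2 library 2) to 0.47 (siSlu7 library 3 with siGL2 library 1). A batch shared across the groups was not tested. The calls among the 8 ranged from 0 to 1 over single left-out libraries, and those among list genes from 0 to 49. Without siGL2 library 1 and siSlu7 library 3 there were 56 list calls, on log2(TPM + 1) 48 and with transcript length offsets 6. Of the 10 alternatives run on transcripts, the fit without a filter called 94 and the other 9 called 0. Transcript classes without overlap numbered 2 to 4 over left-out libraries. The difference between genes with and without the motif was 0.02 for TTATTTATT, 0.13 for ATTTA and 0.00 with GC content and length offsets. EDC4 was at 0.06 on log2(TPM + 1), but at -0.29 relative to the median gene, which lay at 0.35 on that scale. Taken that way, all 24 named list genes kept their direction in all 16 alternatives. They were picked for passing the test in these same libraries, so a kept direction was largely fixed in advance. All 24 lost their call with the replicate block and without siSlu7 library 2. The cause of these changes was not tested. Depth limits ZC3H12A, at 13 to 21 counts per library, and ZFP36 in siSlu7 cells, at 25 to 33. It also limits CXCL8 and CXCL1 in siGL2 cells, at 0.377 to 1.21 CPM and 0.804 to 1.13 CPM. MAPK11 was low in siSlu7 cells, at 0.924 to 1.87 CPM.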
